A study of Homo sapiens with 9 samples.

Results

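The genes described here encode 10 members of the S100 family of small calcium-binding proteins. They were taken from the deposited table of raw counts by symbol, as S100A2, S100A4, S100A6, S100A7, S100A8, S100A9, S100A10, S100A11, S100A14 and S100P, which is 10 of the 60199 symbols of the table. Poly-A RNA was sequenced from 3 independent cultures each of MCF10A-CT (CT), MC26 and M1B26. CT is untreated MCF10A, an immortalized, non-malignant human mammary epithelial line that lacks CDKN2A and carries amplified MYC. MC26 came from unsorted MCF10A cells kept for a long time with BMP2, a bone morphogenetic protein, and IL6, an inflammatory cytokine. M1B26 started from the MCF10A cells that a sort for BMPR1B, a receptor of BMPs, had retained, which were then exposed to the same pair of factors. It was grown up from 3 colonies in soft agar and, like MC26, kept on BMP2 and IL6, so that sorting, cloning and exposure cannot be told apart in M1B26. The cultures of a line share its derivation, so the p-values below measure the spread between cultures and not between independent derivations.

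S100 proteins carry a pair of EF-hand loops, mostly work as dimers, and change shape on binding calcium so that they can hold partner proteins. Inside the cell they regulate annexins, myosin, the cytoskeleton and transcription factors, and several are released and act on the receptors RAGE and TLR4. In stratified and glandular epithelia some members are made constitutively, while the calprotectin subunits and psoriasin are induced by cytokines, barrier damage and differentiation.

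The libraries held 21425118 to 80076597 counts, with a CT library as the shallowest and another as the deepest. Levels are given as counts per 1000000 counts of a library (CPM), scaled with TMM factors, differences as log2 fold changes with their standard error (SE), and adjusted p-values come from the quasi-likelihood test of edgeR over 15717 tested genes, with a threshold of 0.05. All of the 6 basal and 6 luminal epithelial markers had more than 3 counts in at least 1 library of each line. That is a low bar, and the luminal markers KRT19 (0 to 0.284 CPM) and ESR1 (0.0732 to 0.443 CPM) were nearly silent. The summed level of the basal list was 6915 to 8821 CPM in CT, 8236 to 10392 CPM in MC26 and 7542 to 8071 CPM in M1B26, and that of the luminal list 909 to 1042 CPM in CT, 651 to 688 CPM in MC26 and 918 to 964 CPM in M1B26. Chosen after their values were seen, KRT14 rose by 4.34 and 3.33 in MC26 and M1B26 (adjusted p = 8.75e-07 and 2.07e-06) and EPCAM fell by 2.25 in MC26 (adjusted p = 3.65e-06). Against CT, 4 of the 6 basal markers were called higher in MC26, and 3 higher and 1 lower in M1B26. The lower one was KRT5, at -0.42 (adjusted p = 0.00435). Of 5 tested luminal markers, 1 was higher and 4 lower in MC26, and 1 higher and 2 lower in M1B26. The higher one was ESR1, at 1.07 and 2.05 (adjusted p = 0.044 and 0.000519). Beside these marker counts, 38.7% of all tested genes were called in MC26 (18.8% higher, 19.9% lower) and 48.9% in M1B26 (25.2% higher, 23.7% lower) against CT. Of 6 fibroblast markers, 3 in CT and MC26 and 4 in M1B26 had more than 3 counts in a library, with sums of 36.8 to 37.0, 16.7 to 56.0 and 27.97 to 39.4 CPM, and COL1A1 and LUM were called higher in M1B26. The part of these shifts in the results below was not tested. Myeloid cells, known for S100A8 and S100A9, were checked with 8 markers, of which 6 in CT, 4 in MC26 and 4 in M1B26 had more than 3 counts in a library. PTPRC, LYZ, CSF3R and ELANE had no counts in MC26, and the summed level of the 8 markers was 7.47 to 11.6 CPM in CT, 10.4 to 18.1 CPM in MC26 and 34.2 to 48.3 CPM in M1B26, of which CD14 made up 33.8 to 47.9 CPM in M1B26. In bulk RNA, fewer cells making a transcript and less transcript per cell cannot be told apart.

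Of the 10 genes, 9 lie on chromosome 1 between 151982915 and 153616986 and S100P lies on chromosome 4 (GRCh38, chr4:6693878-6697170). The RefSeq promoter windows of all 10 genes were matched by symbol (build GRCh38.p14), and the 250 bases before the start were searched on both strands for TATAAA, for the STAT letters TTCNNNGAA, the C/EBP letters TTGCNNAA, the AP-1 letters TGANTCA and the NF-kB letters (GGGA, any 4 bases, CC). TATAAA was found 28 to 31 bases before the start in S100A4, S100A7, S100A8, S100A9 and S100P, which is 5 of 10, against 10.8% of 34943 promoter windows that held it anywhere. It was not found in S100A2, S100A6, S100A10, S100A11 or S100A14. The search was for these exact letters, and the windows of S100A6 and S100A14 hold the near match TATAAG close before the start. The windows of S100A4 (chr1:153545807-153546056, minus strand), S100A8 (chr1:153391074-153391323, minus strand), S100A9 (chr1:153357604-153357853, plus strand) and S100P (chr4:6693628-6693877, plus strand) are shown because these 4 genes had the widest ranges over all 9 libraries, and S100A10 (chr1:151993860-151994109, minus strand) is shown for contrast. Capitals mark TATAAA and, in S100A4 and S100A10, matches to the NF-kB letters on either strand, none of which overlap.
S100A4: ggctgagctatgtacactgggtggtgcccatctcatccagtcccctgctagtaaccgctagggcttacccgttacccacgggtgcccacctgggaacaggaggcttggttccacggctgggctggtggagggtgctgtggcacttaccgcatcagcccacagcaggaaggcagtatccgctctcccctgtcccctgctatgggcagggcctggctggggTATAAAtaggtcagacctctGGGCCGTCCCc
S100A8: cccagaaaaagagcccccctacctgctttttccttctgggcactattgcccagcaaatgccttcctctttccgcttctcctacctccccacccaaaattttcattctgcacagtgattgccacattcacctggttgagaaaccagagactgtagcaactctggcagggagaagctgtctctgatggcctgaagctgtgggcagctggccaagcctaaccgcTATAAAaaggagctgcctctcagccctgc
S100A9: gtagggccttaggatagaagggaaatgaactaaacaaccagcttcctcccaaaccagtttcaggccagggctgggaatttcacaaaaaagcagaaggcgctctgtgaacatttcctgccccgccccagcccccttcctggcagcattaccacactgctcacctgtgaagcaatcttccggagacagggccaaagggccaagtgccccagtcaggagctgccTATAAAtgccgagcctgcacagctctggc
S100P: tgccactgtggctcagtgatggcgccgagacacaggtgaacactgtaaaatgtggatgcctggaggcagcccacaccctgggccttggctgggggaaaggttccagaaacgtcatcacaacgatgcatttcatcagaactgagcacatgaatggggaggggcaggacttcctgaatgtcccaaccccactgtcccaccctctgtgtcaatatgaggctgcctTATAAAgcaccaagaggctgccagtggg
S100A10: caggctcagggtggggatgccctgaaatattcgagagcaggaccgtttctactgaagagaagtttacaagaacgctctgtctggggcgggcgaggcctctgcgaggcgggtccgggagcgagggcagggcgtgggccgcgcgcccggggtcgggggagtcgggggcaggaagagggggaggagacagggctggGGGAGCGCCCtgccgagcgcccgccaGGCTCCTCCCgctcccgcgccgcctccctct

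CpG dinucleotides numbered 2 in the S100A8 window, 4 in those of S100A9 and S100P and 7 in that of S100A4, against 24 in S100A10, 24 in S100A6 and 15 in S100A11. S100A2 and S100A14 had 4 each and no TATAAA. The 4 tested genes with TATAAA had the 4 widest ranges of log2 CPM over the 9 libraries, 3.93 for S100A4, 3.85 for S100A8, 3.74 for S100P and 3.45 for S100A9. The other 5 tested genes ranged over 1.86 for S100A2 and over 0.65 to 0.89 for the rest, among them S100A6 and S100A14 with TATAAG. Among these few genes the order thus followed the exact letters TATAAA and not the near match TATAAG. Other genes with TATAAA were not compared, and a link between these letters and the range was not tested. The order also rests in part on replicate 3 of MC26 and of M1B26, which stand apart for S100A8, S100A9 and S100P. Without those 2 libraries, left out after the data were examined, the ranges were 3.93 for S100A4, 2.65 for S100P, 1.91 for S100A9 and 1.82 for S100A8, the last below the 1.86 of S100A2, while S100A6, S100A10, S100A11 and S100A14 ranged over 0.65 to 0.85. The STAT letters were in none of the 10 windows and in 6.56% of all windows, the C/EBP letters in S100A11 alone (9.06% of all), the AP-1 letters in S100A2 alone (6.59%) and the NF-kB letters in S100A4, S100A7, S100A10 and S100A14 (22.6%). These are matches of letters and no measure of binding.

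**Figure D1:**
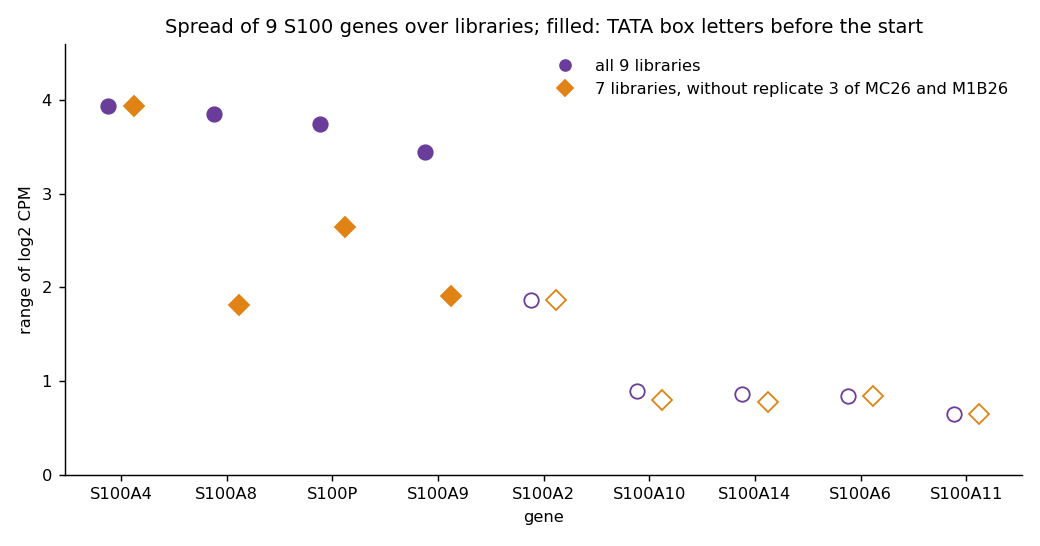
Range of log2 CPM (vertical axis) of the 9 tested S100 genes (horizontal axis) over all 9 libraries (circles) and over the 7 left without replicate 3 of MC26 and M1B26 (diamonds), filled where TATAAA lies before the start. The filled circles lie at 3.45 and above and the open ones at 1.86 and below, but the diamonds of S100A9 (1.91) and S100A8 (1.82) lie beside that of S100A2 (1.86). S100A6 and S100A14, drawn open, hold the near match TATAAG.

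Together the 10 genes took 0.521 to 0.58% of all counts in CT, 0.656 to 0.858% in MC26 and 0.991 to 1.08% in M1B26, with no overlap between the lines. This sum is weighted towards abundant members and does not measure a rise shared by them. In replicate 2, S100A2 alone held 34016 of 111651 member counts in CT, 128954 of 253241 in MC26 and 225465 of 438981 in M1B26. Per kilobase of exonic length, the order of mean levels in CT was S100A6, S100A2, S100A11, S100A10, S100A14, S100A9, S100A4, S100A8, S100P and S100A7, and the 3 CT libraries kept each neighbour in this order apart from the next. S100A6 stood at 2101 CPM per kilobase in CT, rank 9 among 13830 tested genes with a known length, and S100A2 at 1055, rank 19. S100A2 led in M1B26 at 3354 CPM per kilobase (rank 3), followed by S100A6 at 2934 (rank 5), although by length of the canonical transcript S100A6 led in all 3 lines. S100A9 moved from rank 6 among the members in CT to rank 3 in M1B26, where its libraries overlapped those of S100A11, and S100A10 went from rank 4 to rank 7, where its libraries overlapped those of S100A8.

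**Figure D2:**
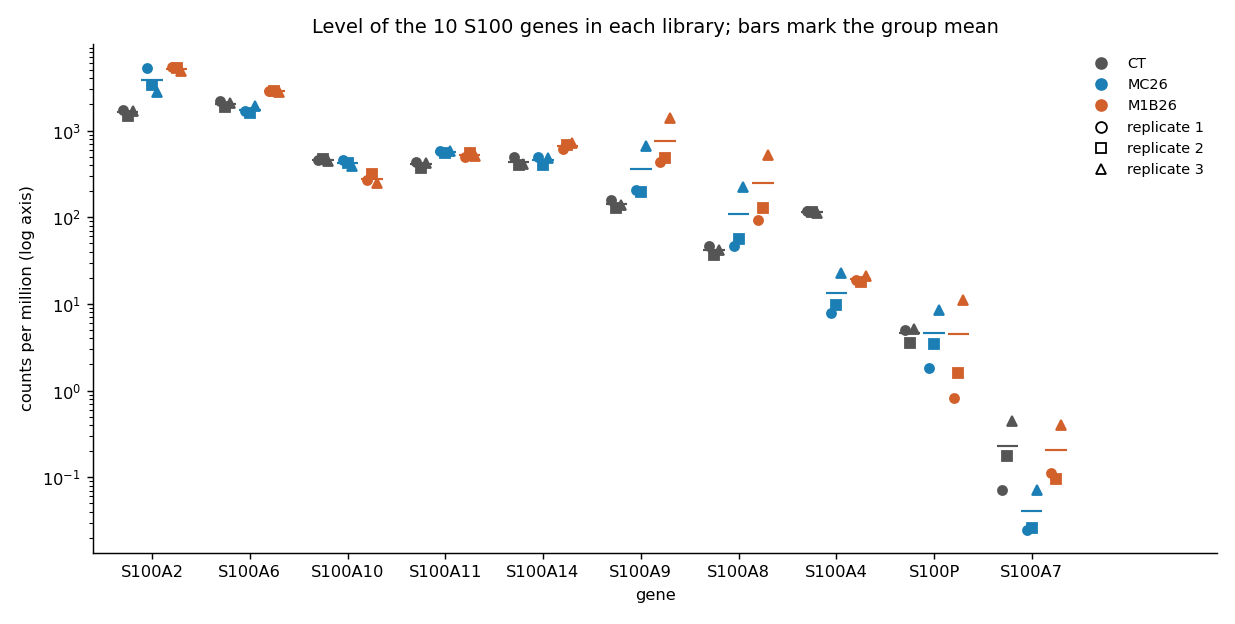
CPM on a log axis for each of the 10 S100 genes (horizontal axis), with 3 libraries per line (circle, square and triangle for replicates 1, 2 and 3) and a bar at the mean of CT (grey), MC26 (blue) and M1B26 (orange). S100A4 sits at 111 to 119 CPM in CT and at 7.76 to 22.7 CPM in the other lines, and the triangles of S100A8, S100A9 and S100P stand above the other libraries of MC26 and M1B26.

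Against CT, 4 of 9 tested members were called changed in MC26 (2 higher, 2 lower) and 8 of 9 in M1B26 (6 higher, 2 lower). Among all tested genes, 38.7% were called in MC26 (18.8% higher, 19.9% lower) and 48.9% in M1B26 (25.2% higher, 23.7% lower), so the share of members in MC26 was near the background. In M1B26 against MC26, 3 of 9 members were called (2 higher, 1 lower), with 39.5% of all genes called (21.2% higher, 18.4% lower). Called changes of at least 2-fold were found for 2 members in MC26 (10.8% of all genes) and 4 in M1B26 (11.7%) against CT, and for 0 by edgeR between the derived lines (8.17%), where 4 members had an unadjusted p under 0.05 with edgeR and with DESeq2. The libraries of the groups did not overlap for 5 of 9 members in MC26 against CT (50.3% of all genes), for 8 of 9 in M1B26 against CT (59.0%) and for 4 of 9 between MC26 and M1B26 (53.5%). The median log2 fold change of the 9 members was 0.08 in MC26 against CT, 0.48 in M1B26 against CT and 0.52 in M1B26 against MC26, while that of all tested genes was 0.00 in each. S100A7 was below the filter on low counts. With the libraries of replicate 3 left out of all lines, a choice made after the data were examined because those of MC26 and M1B26 stood apart, the counts became 5, 9 and 7 of 9, beside 35.2%, 43.7% and 34.6% of all genes called in that fit.

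**Figure D3:**
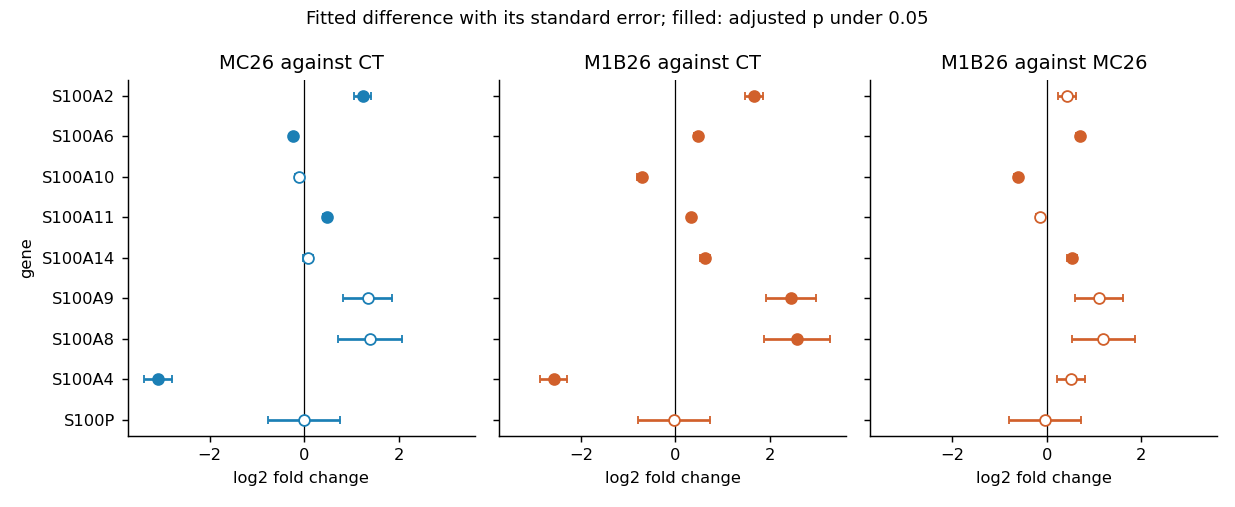
Log2 fold change (horizontal axis) with its SE for the 9 tested S100 genes (vertical axis) for the comparisons of MC26 with CT, of M1B26 with CT and of M1B26 with MC26, from left to right. Filled points passed an adjusted p of 0.05: 4, 8 and 3 of the 9 genes.

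S100A2 and S100A4 made the largest changes that were found in both lines, in opposite directions. S100A2, a mainly nuclear member of basal epithelium that is known to bind p53, stood at 1746, 1485 and 1659.9 CPM in CT, at 5334, 3371 and 2815 CPM in MC26 and at 5396, 5334 and 4826 CPM in M1B26. All libraries of both lines were above all CT libraries, and MC26 varied most, with a coefficient of variation of 34.5% against 8.15% in CT and 6.03% in M1B26. S100A2 rose by 1.24 (SE 0.19, adjusted p = 0.00045) in MC26 and by 1.67 (SE 0.19, adjusted p = 4.11e-05) in M1B26, or 2.36-fold and 3.18-fold. M1B26 and MC26 overlapped and did not differ past the threshold (0.43, SE 0.18, adjusted p = 0.0817). Without MC26 replicate 1, its highest library, the difference was 0.75 and called (adjusted p = 0.000467), and over all fits that left out 1 library it ranged from 0.25 to 0.75.

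S100A4, known as metastasin, binds the heavy chain of non-muscle myosin and is linked to cell motility. It was measured at 119, 116 and 111 CPM in CT, at 7.76, 9.83 and 22.7 CPM in MC26 and at 18.6, 17.96 and 21.2 CPM in M1B26. Every library of both lines was far below the lowest CT library, and replicate 3 of MC26 was 2.58 times the mean of its other libraries. S100A4 fell by 3.09 (SE 0.30, adjusted p = 2.34e-05) in MC26 and by 2.58 (SE 0.29, adjusted p = 4.46e-05) in M1B26, 8.54-fold and 5.96-fold lower. It was the member with the largest fall in either line, and the lines did not differ past the threshold (0.52 higher in M1B26, SE 0.29, adjusted p = 0.183). Without replicate 3 of MC26 that difference was 1.14 and was called (adjusted p = 5.12e-05).

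S100A8 and S100A9 form calprotectin, which binds zinc and manganese and signals through TLR4 and RAGE. S100A8 stood at 46.2, 36.4 and 41.7 CPM in CT, at 46.2, 55.6 and 223 CPM in MC26 and at 92.2, 128 and 524 CPM in M1B26. S100A9 stood at 159, 127 and 138 CPM in CT, at 208, 196 and 669 CPM in MC26 and at 439, 477 and 1386 CPM in M1B26. For both genes the M1B26 libraries were all above the CT libraries, and MC26 replicates 1 and 2 lay close above CT, with S100A8 in MC26 replicate 1 level with the highest CT library. In M1B26 S100A8 rose by 2.58 (SE 0.70, adjusted p = 0.0105) and S100A9 by 2.44 (SE 0.53, adjusted p = 0.0029), or 5.97-fold and 5.43-fold. In MC26 neither passed the threshold, at 1.38 (SE 0.68, adjusted p = 0.131) for S100A8 and 1.34 (SE 0.51, adjusted p = 0.0576) for S100A9. M1B26 was not called different from MC26 either, with 1.196 (SE 0.67, adjusted p = 0.176) and 1.102 (SE 0.50, adjusted p = 0.104). That difference moved with single libraries: S100A8 gave 0.025 without M1B26 replicate 3 and 2.29, called, without MC26 replicate 3 (adjusted p = 0.0132), and S100A9 gave 0.36 and 1.93, the latter called (adjusted p = 0.00475).

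Without M1B26 replicate 3 the difference of S100A8 in M1B26 was 1.41 and no longer called (adjusted p = 0.0574), while without replicate 3 of all lines it was also 1.41, with an SE of 0.17, and called (adjusted p = 9.43e-05). S100A9 was 1.67 (SE 0.12, adjusted p = 2.73e-06) under the same omission. In MC26 the omission left S100A8 at 0.30 (SE 0.17, adjusted p = 0.186) and S100A9 at 0.50 (SE 0.11, adjusted p = 0.00601), the latter called. M1B26 was then above MC26 for both, by 1.11 (SE 0.16, adjusted p = 0.000663) for S100A8 and 1.17 (SE 0.11, adjusted p = 4.82e-05) for S100A9. Over all 9 libraries the 2 transcripts moved together, with a Pearson correlation of 0.98 of log2 CPM between libraries that also share their line. Of the 8 myeloid markers CD14 alone was tested. It stood at 6.90 to 10.97 CPM in CT, 9.72 to 17.8 CPM in MC26 and 33.8 to 47.9 CPM in M1B26, and rose in M1B26 by 2.06 (SE 0.23, adjusted p = 3.75e-05) against CT and by 1.55 (SE 0.22, adjusted p = 0.000418) against MC26, while PTPRC and LYZ averaged at most 0.0231 CPM in any line. The part of CD14-bearing cells in the rise of S100A8 and S100A9 was not tested. The count of S100A9 was 3.31 to 3.48 times that of S100A8 in CT, 2.997 to 4.50 times in MC26 and 2.64 to 4.75 times in M1B26, with the lowest ratio of each line in replicate 3.

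S100A7 (psoriasin), an antimicrobial protein of inflamed epithelium, was nearly silent. It had 5, 4 and 37 counts in CT, 1, 1 and 3 in MC26 and 5, 4 and 22 in M1B26, and the highest count of each line was in replicate 3. In the annotated transcripts, 17.6% of its 50-base stretches also occur in S100A7A, so these reads are uncertain. It was below the filter and so outside the main test. With no filter it was called lower in MC26 than in CT (-2.52, adjusted p = 0.00326) and M1B26 was called above MC26 (2.31, adjusted p = 0.0103), and it was called in MC26 without CT replicate 1 as well (-3.02, adjusted p = 0.0204), but these fitted values rest on at most 3 counts in each MC26 library.

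S100P, which binds ezrin and signals through RAGE, was a low transcript without a call. It stood at 5.04, 3.54 and 5.15 CPM in CT, at 1.84, 3.45 and 8.58 CPM in MC26 and at 0.811, 1.61 and 10.98 CPM in M1B26. The 3 lines overlapped fully, with the highest and the lowest library both in M1B26. The differences were 0.00 in MC26 (SE 0.76, adjusted p = 0.998) and -0.03 in M1B26 (SE 0.76, adjusted p = 0.977). Without replicate 3 of all lines S100P was lower in M1B26, with -1.86 against CT (SE 0.36, adjusted p = 0.002) and -1.14 against MC26 (SE 0.37, adjusted p = 0.0352), and in MC26 against CT the value was -0.72 (SE 0.33, adjusted p = 0.117).

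S100A8, S100A9 and S100P shared this departure of single libraries. Replicate 3 of MC26 was 4.39, 3.32 and 3.25 times the mean of replicates 1 and 2 for S100A8, S100A9 and S100P, and replicate 3 of M1B26 was 4.76, 3.03 and 9.08 times that mean. Replicate 3 of CT was at 1.01, 0.966 and 1.2 times. Of 15717 tested genes, 57 (0.363%) were at least 2-fold higher in replicate 3 of both MC26 and M1B26, and 3 of them were members, out of 9. The same count was 13 for replicate 1 and 25 for replicate 2. Among the other 54, picked after their values were seen, were SAA1 and SAA2, which encode acute-phase serum amyloid proteins, SERPINA3, an acute-phase protease inhibitor, and IL1R2, the decoy receptor of interleukin-1. SAA2 stood at 23.2, 19.1 and 19.6 CPM in CT, at 3.80, 7.61 and 17.6 CPM in MC26 and at 17.6, 21.6 and 52.7 CPM in M1B26. For SAA1, SAA2 and SERPINA3, replicate 3 of MC26 stayed below every CT library. In replicate 3 of M1B26, SAA1 and SAA2 were above every CT library and SERPINA3 was below. IL1R2 was above every CT library in replicate 3 of both MC26 and M1B26. The 2 libraries had 42869494 and 55048760 counts, the most of their lines. The labels give no batch, and what set these libraries apart was not tested.

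**Figure D4:**
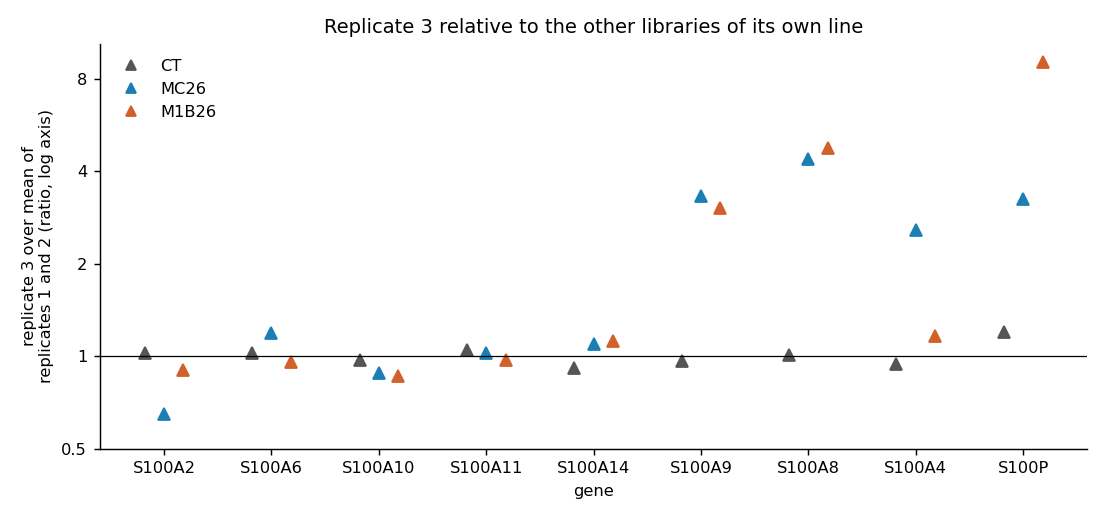
Level of replicate 3 divided by the mean of replicates 1 and 2 of the same line (vertical log axis) for the 9 tested S100 genes in CT (grey), MC26 (blue) and M1B26 (orange). S100A8, S100A9 and S100P lie at 3.03 to 9.08 in MC26 and M1B26 and at 0.966 to 1.2 in CT, and S100A4 lies at 2.58 in MC26.

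S100A10 and S100A11, the annexin-binding members, moved apart in M1B26. S100A10, also known as p11, is held in a complex with annexin A2 at the membrane and no longer responds to calcium. It stood at 453, 466 and 445 CPM in CT, at 453, 427 and 388 CPM in MC26 and at 268, 314 and 251 CPM in M1B26. The M1B26 libraries lay below all others, and CT and MC26 overlapped. S100A10 fell by 0.71 (SE 0.09, adjusted p = 8.12e-05) in M1B26 and was not called in MC26 (-0.10, SE 0.09, adjusted p = 0.377), and the lines differed by -0.61 (SE 0.09, adjusted p = 0.000425). Its partner ANXA2 rose in both lines, by 0.40 (SE 0.07, adjusted p = 0.00165) and 0.44 (SE 0.07, adjusted p = 0.000553).

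Per kilobase of exonic length, merged over all annotated transcripts of a gene, the ratio of S100A10 to ANXA2 was 2.97 ± 0.07 in CT. It was 2.10 ± 0.05 in MC26 and 1.33 ± 0.10 in M1B26 (SD, n = 3 each), and no library of one line overlapped another line. The size of this ratio depends on the lengths used and does not show which transcript was more abundant. Its change between lines does not depend on them. AHNAK, the large scaffold that binds the S100A10 and annexin A2 complex, stood at 902 to 1137 CPM in CT and at 424 to 514 CPM in M1B26, a fall by 1.13 (SE 0.13, adjusted p = 5e-05), with -0.04 in MC26 (adjusted p = 0.819). The plasminogen activators, which act on the plasmin pathway that S100A10 serves at the cell surface, gave no call in MC26, and PLAU rose in M1B26 by 0.56 (SE 0.20, adjusted p = 0.0388). PLAUR, the gene of the receptor that binds the PLAU product urokinase, rose by 1.61 (SE 0.17, adjusted p = 3.48e-05) in MC26 and by 0.88 (SE 0.17, adjusted p = 0.00131) in M1B26.

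S100A11, which pairs with annexin A1, stood at 437, 372 and 424 CPM in CT, at 582, 549.9 and 579 CPM in MC26 and at 495, 549 and 507 CPM in M1B26. Both lines lay above CT with no overlap, and their own ranges lay next to each other, M1B26 below MC26. The rise was 0.47 (SE 0.07, adjusted p = 0.000645) in MC26 and 0.33 (SE 0.07, adjusted p = 0.00387) in M1B26, and the lines were not called different (-0.14, SE 0.07, adjusted p = 0.153). ANXA1 rose as well, by 0.31 (SE 0.09, adjusted p = 0.0148) and 0.55 (SE 0.09, adjusted p = 0.000364). Per kilobase of merged exonic length, the ratio of S100A11 to ANXA1 ranged from 6.51 to 8.51 in CT, 8.07 to 9.76 in MC26 and 6.32 to 6.88 in M1B26. The size of this ratio, too, depends on the lengths used.

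**Figure D5:**
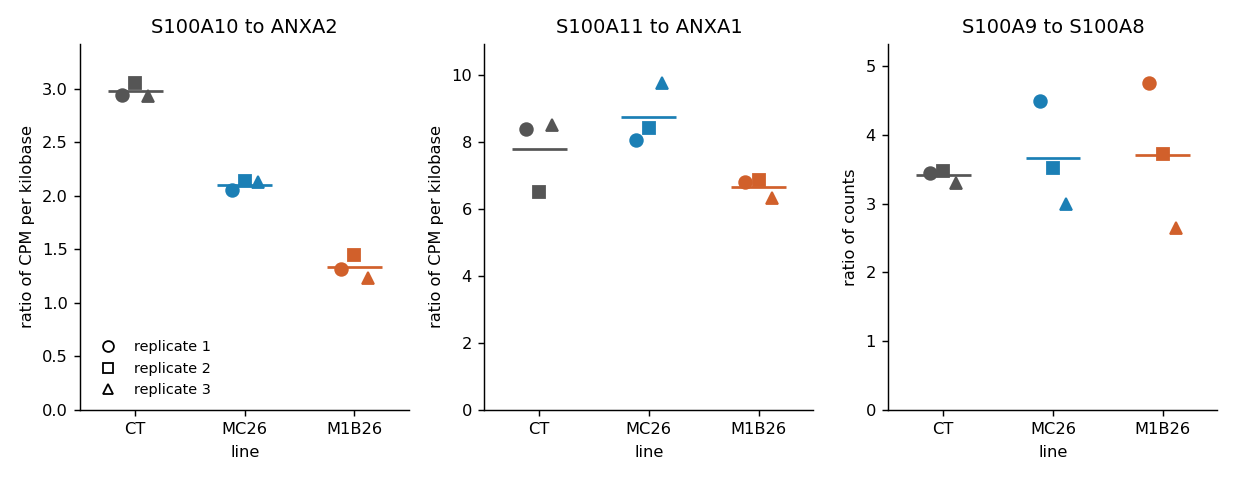
Within-library ratios of S100A10 to ANXA2 and of S100A11 to ANXA1 (CPM per kilobase of merged exonic length) and of S100A9 to S100A8 (counts) on vertical axes that start at 0, for 3 libraries per line with a bar at the mean. The size of the ratios per kilobase depends on the lengths used. The ratio of S100A10 to ANXA2 is 2.97 in CT, 2.10 in MC26 and 1.33 in M1B26 on average, and the other ratios overlap between CT and the derived lines.

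S100A6 and S100A14 were higher in M1B26 than in both other lines. S100A6, or calcyclin, takes part in the turnover of beta-catenin through its binding protein, the product of CACYBP. It stood at 2173, 1872 and 2077 CPM in CT, at 1670.5, 1609.5 and 1945 CPM in MC26 and at 2892, 2884 and 2771 CPM in M1B26. The M1B26 libraries were above all others, while 1 MC26 library lay within the range of CT. S100A6 rose by 0.48 (SE 0.08, adjusted p = 0.00071) in M1B26 and differed by 0.71 (SE 0.08, adjusted p = 0.000105) from MC26. In MC26 it was lower than in CT by -0.23 (SE 0.08, adjusted p = 0.0475), a call that was lost in 7 of 9 fits that left out 1 library, with adjusted p up to 0.186. CACYBP rose in M1B26 by 0.27 (SE 0.08, adjusted p = 0.0137) and gave 0.17 in MC26 (adjusted p = 0.0967). The exons of S100A6 overlap an antisense gene, and since the strand setting of the counting is not given in the sources used here, reads of both genes cannot be told apart.

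S100A14, a member found mainly in epithelia, stood at 496, 398 and 411 CPM in CT, at 495, 397 and 489 CPM in MC26 and at 608, 681 and 722 CPM in M1B26. CT and MC26 covered the same range, and all M1B26 libraries lay above it. The rise in M1B26 was 0.62 (SE 0.11, adjusted p = 0.000829) against CT and 0.54 (SE 0.11, adjusted p = 0.00292) against MC26, and MC26 against CT gave 0.08 (SE 0.11, adjusted p = 0.583).

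Among the receptors, TLR4 was low but rose most of the 18 partner genes in each line against CT. It stood at 0.814, 1.31 and 1.02 CPM in CT, at 2.88, 3.53 and 4.19 CPM in MC26 and at 7.73, 6.79 and 9.54 CPM in M1B26. The 3 lines did not overlap, and TLR4 rose by 1.81 (SE 0.21, adjusted p = 8.97e-05) in MC26, by 2.99 (SE 0.21, adjusted p = 1.72e-06) in M1B26 and by 1.18 (SE 0.19, adjusted p = 0.000721) in M1B26 against MC26. AGER, the gene of RAGE, stood at 2.38 to 3.10 CPM in all libraries and BSG, which encodes the S100A9-binding protein basigin, at 575 to 704 CPM, and neither gave a call in any comparison.

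All 18 partner genes were tested. In MC26 5 were higher and 2 lower than in CT, a share of 38.9% beside 38.7% of all genes, and in M1B26 7 were higher and 2 lower, a share of 50% beside 48.9%. In M1B26 against MC26 4 were higher and 4 lower, a share of 44.4% beside 39.5%. The median log2 fold changes of the list were 0.02, 0.10 and 0.05. ANXA6, which encodes another S100-binding annexin, went opposite ways, at 36.3 to 40.0 CPM in CT, 20.4 to 23.9 CPM in MC26 and 68.1 to 77.7 CPM in M1B26. It fell by 0.75 (SE 0.08, adjusted p = 4.55e-05) in MC26 and rose by 0.95 (SE 0.08, adjusted p = 5.61e-06) in M1B26. IQGAP1, a scaffold that S100P binds, fell by 0.34 (SE 0.07, adjusted p = 0.00386) and 0.76 (SE 0.07, adjusted p = 1.47e-05). MYH9, the myosin partner of S100A4, rose by 0.47 in MC26 (SE 0.12, adjusted p = 0.00962) and was not called in M1B26 (0.05, adjusted p = 0.758). ANXA11, SUGT1, COPS5, DLC1 and PLAT passed the threshold in no comparison. EZR, the ezrin gene, was called between the lines alone, 0.36 higher in M1B26 than in MC26 (SE 0.07, adjusted p = 0.003).

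Of the regulators known to act on S100 genes, TP63, the master factor of basal epithelium, stood at 29.3 to 35.9 CPM in CT, 76.9 to 78.7 CPM in MC26 and 73.8 to 81.6 CPM in M1B26. It rose by 1.29 (SE 0.08, adjusted p = 1.54e-06) and by 1.31 (SE 0.08, adjusted p = 9.36e-07). STAT3, the transcription factor downstream of IL6, rose in M1B26 by 0.37 (SE 0.09, adjusted p = 0.00756) and gave 0.21 in MC26 (SE 0.09, adjusted p = 0.097). CEBPB, a C/EBP factor active in inflammation, rose in M1B26 by 0.53 (SE 0.16, adjusted p = 0.0202). CEBPA, of the same family, fell in both lines, by 1.24 (SE 0.22, adjusted p = 0.00134) and 0.97 (SE 0.22, adjusted p = 0.00347). PRDM1, a repressor active in epidermal differentiation, had the largest rise of the list in M1B26, 2.11 (SE 0.21, adjusted p = 2.03e-05), and rose by 1.05 (SE 0.22, adjusted p = 0.00338) in MC26. KLF4 rose in MC26 by 0.99 (SE 0.22, adjusted p = 0.00456). GRHL3, which acts in barrier formation, fell by 2.90 (SE 0.38, adjusted p = 0.000188) in MC26 and by 1.27 (SE 0.34, adjusted p = 0.00913) in M1B26. Of 11 tested regulators, 4 rose and 3 fell in MC26, beside 18.8% of all genes higher and 19.9% lower. In M1B26 5 rose and 3 fell, beside 25.2% and 23.7%. The median log2 fold changes of these regulators were 0.16 and 0.24.

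The other S100 genes of the family were mostly silent. S100B, S100G and S100Z had no counts in any library, S100A1, S100A5, S100A7A and S100A12 stayed below the filter, and 3 of 10 were tested. S100A16 rose in both lines, by 0.45 (SE 0.08, adjusted p = 0.0015) and 0.59 (SE 0.08, adjusted p = 0.000175), S100A13 in M1B26 by 0.35 (SE 0.10, adjusted p = 0.0119) and S100A3 in MC26 by 0.39 (SE 0.13, adjusted p = 0.0298). Of the 7 fused S100 genes, which join an S100 domain to a long repeat region and serve in hair and cornified skin, TCHH alone was tested and was not called (adjusted p = 0.241 in MC26 and 0.0908 in M1B26 against CT). The interval of chromosome 1 that spans the 9 members there held 58 genes other than S100 genes, of which 8 were tested. In each line 3 of these (37.5%) were called against CT, each of them higher, beside 38.7% of all genes called in MC26 and 48.9% in M1B26. LCE3D and SPRR2D, called in both lines, stood at 0 to 0.122 CPM in CT and passed the filter only on their counts in the derived lines. The direction of these calls was thus set in advance by the filter. These 8 were at low levels, and IVL (involucrin), a differentiation marker of stratified epithelium, stood at 1.76 to 6.64 CPM in MC26 and at 0.258 to 0.939 CPM in CT and M1B26. IVL rose by 2.69 (SE 0.47, adjusted p = 0.00121) in MC26.

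The list of epithelial defence genes, which are known to be induced along with calprotectin, held 12 tested genes. This list was chosen with earlier results of these data known, so its counts only describe it and are no test of an excess. In MC26 8 of the 12 were called, each higher, beside 18.8% of all genes called higher. In M1B26 9 rose and 1 fell, beside 25.2% higher and 23.7% lower. The median log2 fold changes were 1.11 and 1.95, beside 0.00 for all tested genes. SERPINB4, at 0.0571 to 0.159 CPM in CT, passed the filter only on its counts in the derived lines. CXCL1, a neutrophil chemokine, rose by 2.88 in M1B26 (SE 0.21, adjusted p = 2.33e-06) from 29.2 to 31.6 CPM in CT to 204 to 239 CPM. SERPINB3, a serpin of squamous epithelium, rose by 3.98 (SE 0.61, adjusted p = 0.000526) in MC26 and by 3.82 (SE 0.61, adjusted p = 0.000447) in M1B26. KRT16, a stress keratin, fell by 1.77 (SE 0.37, adjusted p = 0.00263) in M1B26. Of these 12, 1 was among the 57 genes that were at least 2-fold higher in replicate 3 of MC26 and M1B26, SERPINB4.

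For the 3 members that varied most, the most similar profiles were sought over the 9 libraries among the 10627 genes that averaged 5 CPM or more. These libraries share their line, so the coefficients only describe the profiles. S100A4 was most like INKA2 (Pearson r = 0.997), METTL7A (0.997) and MARC1 (0.995), all of which were lower in both lines, METTL7A by -2.13 and -1.69. S100A8 was most like STAT3 (0.935), PHC2 (0.918) and SOD2 (0.915). SOD2, the mitochondrial superoxide dismutase, stood at 224 to 254 CPM in CT and reached 564 CPM in replicate 3 of MC26 and 905 CPM in replicate 3 of M1B26. S100P was most like FOSL2 (0.907), PXK (0.873) and GLRX (0.866), none of which was called in any comparison.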

How the data were processed

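Total RNA of 9 cultures was sequenced as poly-A libraries in paired-end mode. The authors deposited raw counts per gene symbol, and the submitters' notes and methods name STAR 2.7.3a, Salmon 1.1.0 and GRCh38. Which program made the counts, its strand setting and its treatment of multi-mapped reads are not given in the sources used here. The titles gave each library's line and number. Here the counts were tested with edgeR 4.0.16 (R 4.3.3): filterByExpr with a minimum count of 10 kept 15717 of 29997 symbols with a count, TMM factors were used, and all 9 libraries shared 1 quasi-likelihood fit by group, 2-sided, with Benjamini-Hochberg adjustment over all tested genes. SEs are the log2 fold change over the square root of F. DESeq2 1.42.0 was an alternative. Exonic lengths came from GENCODE v44, as the merged exons of all transcripts of a gene. In simulated counts, 76 of 98 genes changed 2-fold and 95 of 99 changed 4-fold were recovered in MC26 against CT. Members and gene lists were chosen with earlier results of these data known. All members were named, all partners and the regulators STAT3, CEBPB, TP63 and KLF4 could be named, and from other lists at most the 3 highest and 3 lowest called genes averaging 1 CPM or more. Genes below the filter, TCHH, LCE3D, SPRR2D, cell type markers and genes high in replicate 3 were named outside this rule, to account for a list or after their values were seen.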

Additional observations from a re-analysis of the deposited data

Results flagged for a closer look

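The response against CT differed between the derived lines for 3 of 9 tested members (33.3%), by the direct test of M1B26 against MC26 in edgeR. Of all tested genes 39.5% were called in that test, so the share of members was not above the background. For S100A6 the log2 fold change was 0.71 higher in M1B26 (adjusted p = 0.000105), where it rose and MC26 gave a small decrease, for S100A14 it was 0.54 higher (adjusted p = 0.00292), and for S100A10 it was -0.61 (adjusted p = 0.000425), lower in 3 of 3 M1B26 libraries than in any MC26 library. All libraries of M1B26 lay outside the range of MC26 for each of these 3 genes, as the groups did not overlap for 53.5% of all tested genes. What set the lines apart was not tested, and the sorting of M1B26 and its growth from clones cannot be told apart from its exposure.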

How the results depend on the processing

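In edgeR, other scalings (RLE size factors, total counts, or TMM without the members), DESeq2 and a mean of at least 50 counts left 4, 8 and 3 members called for MC26 and then M1B26 against CT and for M1B26 against MC26, the order used throughout. Total counts without a factor moved the split of all calls from 2947 higher and 3134 lower to 2173 and 3898 in MC26 and from 3959 and 3729 to 3094 and 4728 in M1B26, with the same members called. Testing against 1.5-fold (glmTreat) left 2, 4 and 0 members, with 3, 5 and 1 at an unadjusted p under 0.05, and 1463, 1725 and 964 genes in all against 6081, 7688 and 6215. An adjusted p under 0.01 left 3, 7 and 3 members and 3698, 5265 and 3685 genes. With no filter 6, 8 and 8 members of 10 were called, beside 21.3%, 26.6% and 21.3% of all genes, among them S100A4, S100A8 and S100A9 in M1B26 against MC26. Same-numbered libraries of different lines correlated at -0.096 to 0.126 in their deviations from the line means, 1 of 9 pairs over 0.1. That pair was replicate 3 of MC26 with replicate 3 of M1B26, the libraries that stood apart. Not every library correlated best with its own number, so numbers were not taken to pair cultures. The replicate block gave 4, 8 and 6 members and 5879, 7513 and 6009 genes. Leaving out 1 library gave 3 to 4, 8 to 8 and 3 to 6 members, the 6 without MC26 replicate 3, and medians of -0.03 to 0.20, 0.34 to 0.50 and 0.36 to 0.79. Leaving out replicate 3 of all lines gave 5, 9 and 7 members, beside 5522, 6858 and 5437 genes, with medians of 0.0045, 0.51 and 0.52. Of 540 values for single members, 479 kept direction and call, 22 lost the call, 26 gained it and 13 changed sign, all for S100P, which ranged from -0.82 to 0.38, -1.94 to 0.46 and -1.94 to 0.79 without 1 library and was 0.022 in MC26 with DESeq2. The cause was not tested. The SE of S100P was 0.76 to 0.77 over all libraries and 0.33 to 0.37 without replicate 3, so at full n only large changes of it were detectable.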
